A study of Mus musculus with 14 samples.

Results

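The mitochondrial ribosomal protein genes were taken as every gene of the count table whose symbol starts with Mrps or Mrpl followed by a number, which gave 78 of 22430 genes. By symbol, 29 belong to the small subunit and 49 to the large subunit. The symbols and the structures do not fully match. Mrps18a and Mrps30 sit in the large subunit of the mammalian particle, and Mrps36 is now known as a component of the 2-oxoglutarate dehydrogenase complex, so the known positions put 26 in the small subunit, 51 in the large subunit and 1 in neither. Members of the particle whose symbols follow another pattern were kept as a separate list of related genes.

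RNA was sequenced from the inner layer (intima) of the thoracic aorta, in mice that all lacked apolipoprotein E (Apoe-/-), a strain that develops atherosclerosis. Progerin is the shortened, farnesylated form of lamin A behind Hutchinson-Gilford progeria syndrome. The VSMC progerin mice (Apoe-/-LmnaLCS/LCS SM22Cre, 3 pools) express progerin in vascular smooth muscle cells through a Cre recombinase driven by the SM22α promoter, and their lamin C-only controls (Apoe-/-LmnaLCS/LCS, 4 pools) carry the same allele without Cre. The ubiquitous progerin mice (Apoe-/-LmnaG609G/G609G, 3 pools) express progerin in all tissues, and their wild-type controls (Apoe-/-Lmna+/+, 4 pools) have wild-type lamin A/C. Each of the 14 libraries was made from a pool of 12 to 14 mice, so the errors below are those between pools. The labels give no ages for the mice. In the VSMC model progerin is thus made in smooth muscle cells, while the intima is lined by endothelial cells.

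Mitochondria carry their own ribosome, which translates the 13 proteins encoded in mitochondrial DNA, all of them subunits of the respiratory chain and the ATP synthase. Its ribosomal RNAs are made inside the organelle, while every one of its proteins is encoded in the nucleus, translated in the cytosol and imported. Small subunit proteins hold the messenger RNA and the decoding site. Large subunit proteins surround the peptidyl transferase centre and the exit tunnel that opens at the inner membrane. Genes numbered up to S21 and L36 are named after bacterial counterparts, and higher numbers mostly mark proteins added in mitochondria.

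The promoters of these genes are shown because the whole set is known to be under nuclear factors that serve mitochondria, among them NRF1, GABPA (NRF2) and YY1. RefSeq promoter windows on GRCm38.p6, 250 bases before to 50 bases after the start, were found for 69 of the 78 members. Words were searched on both strands. A gene with several windows was counted once, if any of its windows held the word. The NRF1 word (GCGCA, any base, then GCGC) stood in 13 of the 69 members with a window (18.8%), against 5.19% of all 27025 genes with one. The GABPA word CCGGAAGT stood in 12 (17.4%, against 4.31%), and the shorter ETS core CGGAAG, which the GABPA word contains, in 39 (56.5%, against 18.8%). The YY1 word AAGATGGC stood in 12 (17.4%, against 3.19%). The CCAAT box CCAAT, in 39.1% of the members, was about as frequent as in all genes (41.1%), and TATAAA stood in 7.25%, against 15.7%. At least 1 of the NRF1, ETS core and YY1 words was present in 51 of the 69 members (73.9%, against 23.9%). A word is a match of letters, not a bound site. The 9 stretches printed here run from 120 bases before the start to 10 bases from it, in 5′ to 3′ order, for members described below. Capitals mark the NRF1 word and ETS core in Mrps9, the GABPA and NRF1 words in Mrps26, the GABPA word in Mrpl3, the ETS core in Mrps18a, the ETS core and GABPA word in Mrpl52, the NRF1 word in Mrpl17 and Mrpl12, and the YY1 word in Mrps11 and Mrpl36. Other searched words in these stretches are left in lower case. A further NRF1 word in Mrps26 overlaps the one marked and runs past the end of the stretch shown.
Mrps9, chr1:42851113-42851242, plus strand: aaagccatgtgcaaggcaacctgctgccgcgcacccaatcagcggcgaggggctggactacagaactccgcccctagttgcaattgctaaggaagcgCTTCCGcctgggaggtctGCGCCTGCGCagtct
Mrps26, chr2:130563637-130563766, plus strand: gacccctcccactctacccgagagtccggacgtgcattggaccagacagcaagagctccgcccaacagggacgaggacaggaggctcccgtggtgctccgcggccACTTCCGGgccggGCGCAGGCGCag
Mrpl3, chr9:105053148-105053277, plus strand: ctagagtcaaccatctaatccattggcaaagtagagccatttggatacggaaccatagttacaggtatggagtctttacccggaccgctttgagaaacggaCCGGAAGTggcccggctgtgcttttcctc
Mrps18a, chr17:46110884-46111013, plus strand: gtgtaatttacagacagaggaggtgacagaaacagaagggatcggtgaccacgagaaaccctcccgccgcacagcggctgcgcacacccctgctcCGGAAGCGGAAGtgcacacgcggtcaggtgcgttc
Mrpl52, chr14:54426789-54426918, plus strand: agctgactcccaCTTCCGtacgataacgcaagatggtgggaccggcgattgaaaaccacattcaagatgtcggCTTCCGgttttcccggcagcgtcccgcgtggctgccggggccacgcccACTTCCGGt
Mrpl17, chr7:105811078-105811207, minus strand: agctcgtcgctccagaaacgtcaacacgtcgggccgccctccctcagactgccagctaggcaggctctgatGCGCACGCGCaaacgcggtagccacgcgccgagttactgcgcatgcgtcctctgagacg
Mrpl12, chr11:120484517-120484646, plus strand: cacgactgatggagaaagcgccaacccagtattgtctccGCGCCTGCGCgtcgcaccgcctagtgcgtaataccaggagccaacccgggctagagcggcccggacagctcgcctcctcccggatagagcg
Mrps11, chr7:78783011-78783140, plus strand: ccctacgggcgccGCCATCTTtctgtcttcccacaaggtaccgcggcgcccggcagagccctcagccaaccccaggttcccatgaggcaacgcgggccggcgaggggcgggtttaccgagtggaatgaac
Mrpl36, chr13:73330889-73331018, plus strand: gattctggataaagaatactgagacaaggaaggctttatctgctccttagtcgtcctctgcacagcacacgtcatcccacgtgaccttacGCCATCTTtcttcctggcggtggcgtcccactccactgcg

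The same words stood on both sides of the changes described below. An ETS core was present in 10 of the 13 members with a window that were higher in VSMC progerin, in 10 of the 16 higher in ubiquitous progerin and in 7 of the 18 lower in ubiquitous progerin. The NRF1 word stood in 2, 3 and 5 of these, in the same order, the GABPA word in 4, 4 and 1, and the YY1 word in 3, 2 and 3. Over all 69 members with a window, the ETS core stood in 56.5%, the NRF1 word in 18.8%, and the GABPA and YY1 words in 17.4% each. Whether a word went with a direction of change was not tested.

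Every member was measured in every library, with at least 103 estimated counts, and all 78 passed the filter on low counts. Levels are CPM, counts relative to the library total, with TMM normalisation factors. The member means ran from 7.2 to 85.7 CPM with a median of 21.8. Per kilobase of transcript, the highest were Mrpl33, a small bacterial-type protein of the large subunit, at 96.2 CPM per kb and Mrpl24, a protein at the exit tunnel, at 69.6 CPM per kb. The lowest were Mrpl19 at 2.18 and Mrpl57 at 3.10 CPM per kb. The median level was 12.2 CPM per kb for small subunit genes and 15.6 for large subunit genes.

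The summed level of the whole set moved little. The small subunit genes summed to 628.5, 672.8 and 634.4 CPM in the VSMC progerin pools, against 609.5, 637, 602.9 and 630.5 CPM in lamin C-only pools. They summed to 631.4, 651.8 and 648.3 CPM in the ubiquitous progerin pools, against 620.1, 626.3, 621.1 and 607.2 CPM in wild-type pools. The ubiquitous pools all lay above the wild-type pools, while the VSMC and lamin C-only pools overlapped. The large subunit genes summed to 1148, 1234 and 1215 CPM in VSMC progerin, against 1134, 1181, 1123 and 1194 CPM in lamin C-only controls. They summed to 1151, 1146 and 1149 CPM in ubiquitous progerin, against 1154, 1175, 1185 and 1170 CPM in wild-type controls, with every ubiquitous pool below every wild-type pool. The ratio of the large to the small sum was therefore 1.82, 1.76 and 1.77 in ubiquitous progerin, against 1.86, 1.88, 1.91 and 1.93 in wild-type controls. In VSMC progerin the ratio was 1.83, 1.83 and 1.91, against 1.86, 1.85, 1.86 and 1.89 in lamin C-only controls, and these ranges overlapped. These sums and ratios follow the symbols. With Mrps18a and Mrps30 moved to the large subunit and Mrps36 left out, both sums overlapped between ubiquitous progerin and wild-type pools. The ratio of the large to the small sum still lay lower in every ubiquitous pool than in every wild-type pool, by a narrow margin. As a share of all counts, the 78 genes took 0.174% to 0.188% in every library.

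The mitochondrially encoded transcripts, whose translation is the task of this ribosome, were higher with progerin. All 13 protein-coding ones were higher in VSMC progerin than in lamin C-only controls, with a median log2 fold change of 1.65, and 12 of 13 were higher in ubiquitous progerin than in wild-type controls, with a median of 0.53. Between the controls, 4 of 13 were lower in lamin C-only than in wild-type mice, with a median of -0.36. They summed to 118700 to 126300 CPM in VSMC progerin, against 34780 to 44810 CPM in lamin C-only controls. They summed to 73420 to 82370 CPM in ubiquitous progerin, against 45520 to 55050 CPM in wild-type controls. No range overlapped in either comparison. In bulk RNA, fewer or more cells of a type and less or more RNA per cell cannot be told apart.

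**Figure D1:**
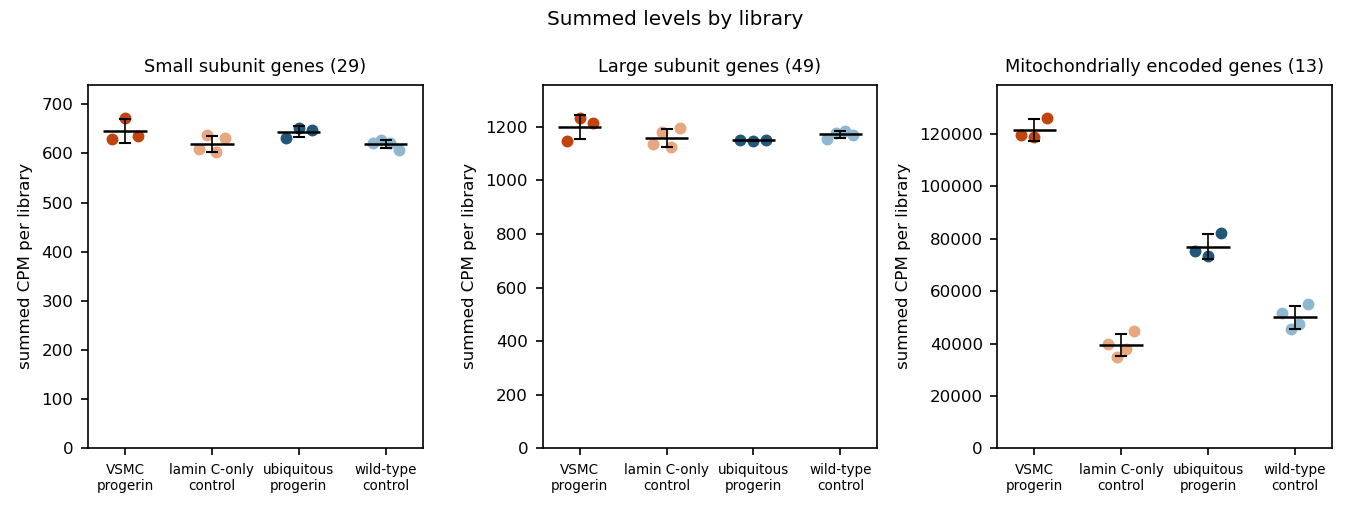
Summed CPM per library of the 29 small subunit genes, the 49 large subunit genes and the 13 mitochondrially encoded protein genes, by group, with points for pools, lines for means and bars for SD. The nuclear sets stay between 602.9 and 672.8 CPM and between 1123 and 1234 CPM, while the mitochondrially encoded sum spans 34780 to 126300 CPM.

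Before the comparisons, the libraries themselves need a short account. Totals ran from 27169784 to 35692385 estimated counts. Wild-type pool 1 detected 14328 genes and the other wild-type pools 15188 to 15233. It also held the outlying values of Mrps21, Mrpl2 and Mrpl33. Lmna summed over all its transcripts was 207 to 256 CPM in VSMC progerin, 126 to 142 in lamin C-only controls, 115 to 121 in ubiquitous progerin and 113 to 125 in wild-type controls. A gene total does not separate progerin, lamin A and lamin C and so checks no genotype. Summed endothelial markers were 21610 to 22610 CPM in VSMC progerin, 22410 to 24630 in lamin C-only controls, 20920 to 21970 in ubiquitous progerin and 23400 to 25300 in wild-type controls. Of the 10 endothelial markers, 4 were higher and 5 lower in VSMC progerin, and 3 higher and 5 lower in ubiquitous progerin. Tek averaged 503 CPM in ubiquitous progerin against 1240 in wild-type controls, and Emcn 256 against 114 CPM. The ubiquitous and wild-type ranges of the endothelial sum did not overlap. Markers of other cell types also differed between the groups. The 11 macrophage markers summed to 886.3 to 1047 CPM in VSMC progerin against 199.2 to 373.2 in lamin C-only controls, with 10 higher and 1 lower. In ubiquitous progerin they summed to 1211 to 1859 CPM against 207.2 to 285.9 in wild-type controls, with 10 of 11 higher. The 7 adventitial fibroblast markers summed to 1243 to 1454 CPM in VSMC progerin against 381.6 to 642 in lamin C-only controls, and the 6 adipocyte markers to 1104 to 1423 against 168.6 to 764.6 CPM. In ubiquitous progerin against wild-type controls these sums were 352.4 to 404.9 against 423.1 to 461 CPM and 308.7 to 581.7 against 173.6 to 247.8 CPM. Of the 6 adipocyte markers, 5 were higher and 0 lower in VSMC progerin, and 0 were called in ubiquitous progerin. Of the 7 fibroblast markers, 0 were higher and 1 lower in ubiquitous progerin, with a median log2 change of 0.35. The lower one was Pi16, at a mean of 59 CPM in ubiquitous progerin against 207 CPM in wild-type controls. The 8 smooth muscle markers summed to 318.5 to 383.1 CPM in VSMC progerin against 398.2 to 560.9 in lamin C-only controls, and to 935.9 to 983.2 CPM in ubiquitous progerin against 492.1 to 830.5 in wild-type controls. In the ubiquitous comparison 1 of the 8 was higher and 3 lower, with a median log2 change of -0.09: Tagln averaged 774 CPM in ubiquitous progerin against 258 in wild-type controls, while Acta2 averaged 92.6 against 213 CPM, Smtn 60.9 against 95.5 CPM and Myh11 5.9 against 14.7 CPM. In the VSMC comparison 0 were higher and 3 lower. None of the markers of these types was at 0 in any library. The part of these cells in the results below was not tested.

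Progerin in smooth muscle cells came with small changes in a minority of the set, more of them higher than lower. Of the 78 members, 15 were higher and 3 lower in VSMC progerin than in lamin C-only controls at an adjusted p under 0.05 in edgeR's quasi-likelihood test. That is 23.1% of the members (19.2% higher and 3.85% lower), against 42.0% of all 14269 genes tested (19.0% higher and 23.0% lower). The share higher was thus near that of all genes, and the share lower was below it. The 15 included 4 of the 29 small subunit genes and 11 of the 49 large subunit genes, and the 3 lower ones were all in the large subunit. The median log2 fold change was 0.05 over the members and -0.03 over all genes, and the median size of the change was 0.13, against 0.28. The count of 15 depended on 1 library. Without VSMC progerin pool 2 it was 7, and without VSMC pool 1 the count of lower genes was 1. Where counts were scaled by library totals alone, 9 members were higher and 6 lower, and the medians of both subunits turned negative (-0.06 small, -0.01 large). That scaling moved the median of all genes to -0.11, against -0.03 with TMM, and the split of all called genes was 2272 higher and 4435 lower, against 2705 and 3283 with TMM.

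Of the small subunit, Mrps18a had the smallest adjusted p, although its protein sits in the large subunit. Mrps18a (chr17:46110986-46128910, the whole annotated gene on GRCm38, introns included, as for the spans below) had 30.7, 32.2 and 28.9 CPM in VSMC progerin pools, against 20.3, 20.9, 23.0 and 24.6 CPM in lamin C-only pools. All VSMC pools were above all lamin C-only pools, with a log2 fold change of 0.46 ± 0.09 (SE, adjusted p = 0.0002). Mrps28, a protein of the small subunit, had 10.2, 9.28 and 10.9 CPM in VSMC progerin, against 7.04, 7.46, 5.64 and 7.08 CPM in lamin C-only controls. Its change was 0.57 ± 0.18 (adjusted p = 0.014), again with no overlap. Mrps11, the counterpart of a bacterial platform protein, had 13.7, 17.5 and 16.6 CPM in VSMC progerin, against 13.4, 11.3, 11.7 and 11.4 CPM in lamin C-only controls. Mrps6, the counterpart of bacterial S6, had 10.9, 12.5 and 9.35 CPM in VSMC progerin, against 8.41, 5.94, 8.0 and 8.89 CPM. In both genes the groups came close to each other without overlapping. The changes were 0.42 ± 0.15 (adjusted p = 0.028) and 0.48 ± 0.18 (adjusted p = 0.041), and both passed 0.05 or missed it depending on which library was left out.

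Among the large subunit genes, the leading higher members have short coding sequences. Mrpl52 (chr14:54426909-54429756), a protein found in mitochondrial but not bacterial ribosomes, had 28.1, 31.2 and 31.1 CPM in VSMC progerin, against 23.0, 21, 22.6 and 21.2 CPM in lamin C-only controls. Every VSMC pool was higher, and the log2 change was 0.46 ± 0.10 (adjusted p = 0.00076). Mrpl33 had 49.8, 56.8 and 51.2 CPM in VSMC progerin, against 42.7, 44.7, 37.9 and 43.1 CPM, a change of 0.32 ± 0.08 (adjusted p = 0.0023). It is among the shortest proteins of the particle, with a coding length of 195 bases. Mrpl36, another very short bacterial-type protein, had 12.7, 18 and 15.4 CPM in VSMC progerin, against 10.5, 10.6, 11.4 and 11.7 CPM, a change of 0.48 ± 0.13 (adjusted p = 0.0073). Mrpl54, a mitochondria-specific protein, had 17.3, 12.2 and 15.1 CPM in VSMC progerin, against 8.52, 10.6, 8.51 and 12.1 CPM, a change of 0.58 ± 0.17 (adjusted p = 0.0096). The lowest VSMC pool of Mrpl54 was 12.2 CPM and the highest lamin C-only pool 12.1 CPM, so the groups barely separated.

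The other large subunit genes that were higher were Mrpl17, Mrpl20, Mrpl27, Mrpl34, Mrpl41, Mrpl51 and Mrpl57, with changes between 0.24 for Mrpl51 and 0.51 for Mrpl41. Mrpl41 was the one of these whose groups overlapped, with 11.3, 12.0 and 8.52 CPM in VSMC progerin, against 6.96, 6.78, 6.97 and 8.95 CPM in lamin C-only controls. Mrpl51 separated completely, with 30.7, 30.8 and 31.7 CPM in VSMC progerin, against 26.8, 26.4, 26.3 and 25.7 CPM. The call was lost without VSMC pool 2 for Mrpl36, Mrpl41 and Mrpl57, without VSMC pool 1 for Mrpl54 and without VSMC pool 3 for Mrps28. The VSMC calls of Mrpl17, Mrpl20, Mrpl27, Mrpl34 and Mrpl51 were not followed one by one. Since only 7 members were higher without VSMC pool 2, some of these lost the call there too.

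The 3 lower genes encode a core protein and a pair of mitochondria-specific ones. Mrpl4 (chr9:21002738-21008839), whose bacterial counterpart reaches into the exit tunnel, had 45.4, 44.7 and 48.4 CPM in VSMC progerin, against 53.6, 59.8, 53.5 and 56.5 CPM in lamin C-only controls. All VSMC pools were below all lamin C-only pools, with a change of -0.27 ± 0.07 (adjusted p = 0.0024). Mrpl50 had 17.1, 20.4 and 18.7 CPM in VSMC progerin, against 22.7, 23.2, 22.3 and 23.5 CPM, a change of -0.29 ± 0.09 (adjusted p = 0.016). Mrpl49 had 20.8, 22.1 and 22.6 CPM in VSMC progerin, against 24.4, 28.2, 26.6 and 24.2 CPM, a change of -0.24 ± 0.09 (adjusted p = 0.032). Mrpl4 kept its call in every alternative run, while Mrpl50 lost it in 3 (upper-quartile factors, a mean of at least 5 CPM, and without VSMC pool 1) and Mrpl49 in 10.

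**Figure D2:**
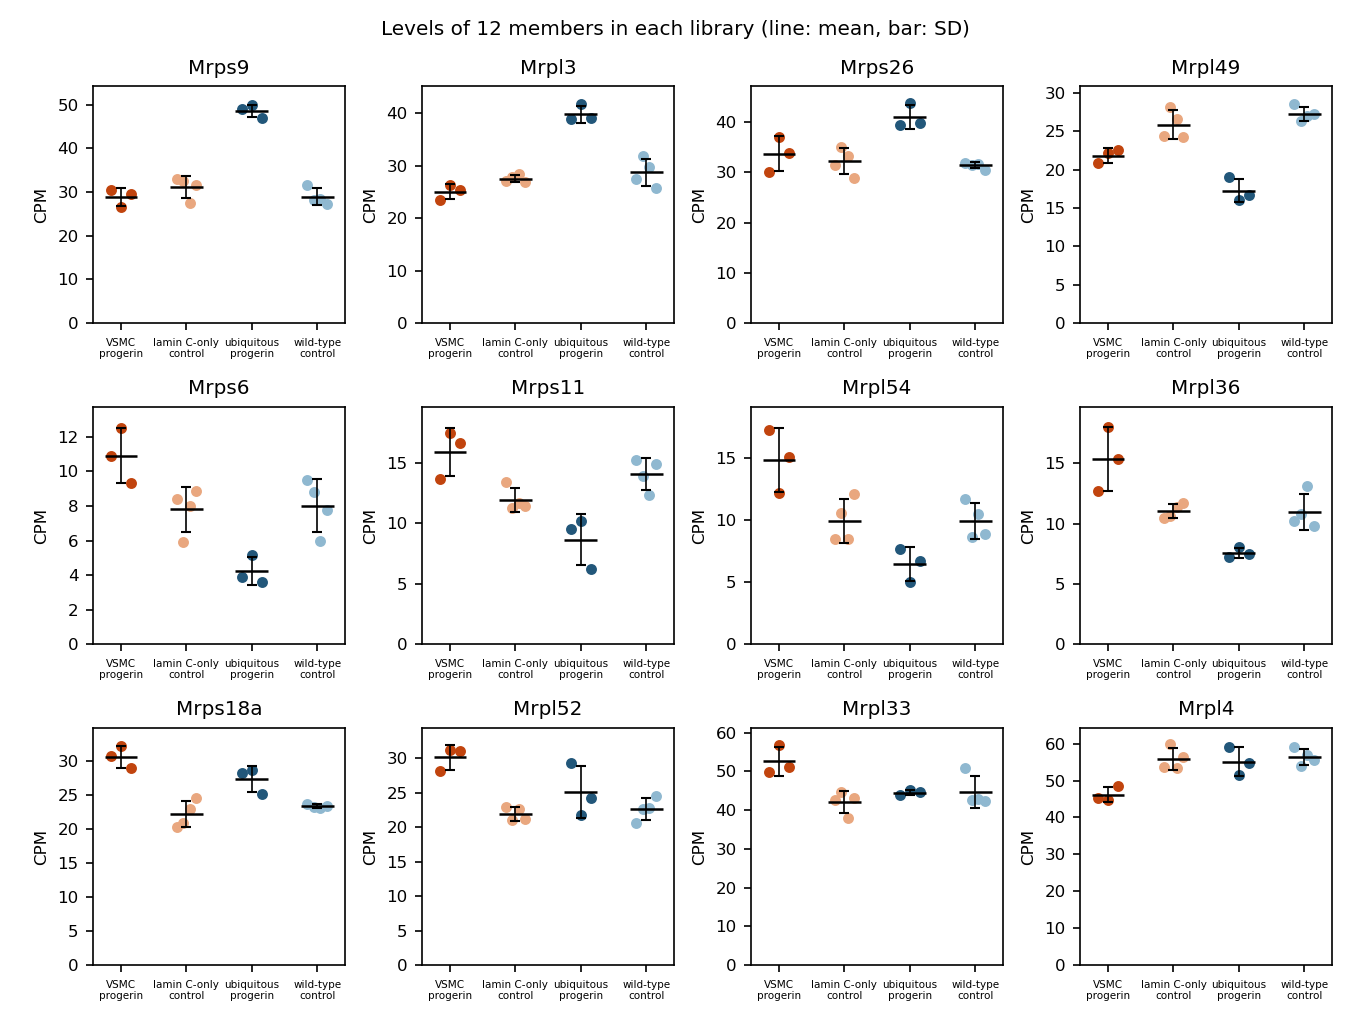
CPM of 12 members in each library, with points for pools, lines for means and bars for SD, for VSMC progerin, lamin C-only control, ubiquitous progerin and wild-type control. Mrps9 stands at 47.0 to 49.8 CPM in ubiquitous progerin against 27.3 to 31.7 CPM in wild-type controls, while Mrps6, Mrps11, Mrpl54 and Mrpl36 are high in VSMC progerin and low in ubiquitous progerin.

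Ubiquitous progerin moved more members, and in both directions. Against wild-type controls, 17 were higher and 20 lower. That is 47.4% of the members (21.8% higher and 25.6% lower), against 54.6% of all genes tested (26.3% higher and 28.3% lower). The small subunit had 9 higher and 7 lower of 29, and the large subunit 8 higher and 13 lower of 49. The median log2 change was 0.00 over the members and -0.01 over all genes, and the median size was 0.23, against 0.39. Leaving out single libraries gave 12 to 16 higher and 15 to 19 lower. Without wild-type pool 1 the counts were 15 and 19.

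Mrps9 had the smallest adjusted p of any member in either progerin comparison. It is the counterpart of bacterial S9, a protein of the small subunit head. Mrps9 (chr1:42851233-42905683) had 48.9, 49.8 and 47.0 CPM in ubiquitous progerin, against 31.7, 28.2, 28.5 and 27.3 CPM in wild-type controls. No pool overlapped, and the log2 change was 0.75 ± 0.08 (adjusted p = 1.6e-07). In VSMC progerin the same gene had 30.5, 26.6 and 29.5 CPM, against 32.9, 32.6, 27.6 and 31.6 CPM in lamin C-only controls (-0.11 ± 0.08, adjusted p = 0.3). Mrps26, a mitochondria-specific small subunit protein, had 39.4, 43.7 and 39.8 CPM in ubiquitous progerin, against 31.8, 31.5, 31.6 and 30.5 CPM in wild-type controls, a change of 0.38 ± 0.08 (adjusted p = 0.00053). Mrps31 had 20.3, 20.2 and 19.8 CPM in ubiquitous progerin, against 14.2, 16.1, 14.5 and 13.3 CPM, a change of 0.46 ± 0.12 (adjusted p = 0.003). Mrps30, which sits in the large subunit, had 22.2, 27.5 and 23.8 CPM in ubiquitous progerin, against 20.0, 17.1, 19.9 and 18.4 CPM, a change of 0.38 ± 0.10 (adjusted p = 0.0037). In each of these 4 genes the ubiquitous pools lay above every wild-type pool.

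Large subunit genes that were higher included core proteins of the peptidyl transferase region. Mrpl3 (chr9:105053239-105079888), which reaches towards the peptidyl transferase centre, had 38.8, 41.7 and 39.0 CPM in ubiquitous progerin, against 27.5, 31.8, 29.7 and 25.8 CPM in wild-type controls. The groups did not overlap, with a change of 0.47 ± 0.08 (adjusted p = 5e-05). Mrpl2, the counterpart of the bacterial protein that supports peptide bond formation, had 37.4, 36.2 and 35.4 CPM in ubiquitous progerin, against 22.3, 28.2, 27.8 and 27.2 CPM. Its change of 0.46 ± 0.10 (adjusted p = 0.00049) was 0.39 (adjusted p = 0.0016) without wild-type pool 1, its lowest value. Mrpl41 had 13, 12.8 and 14.2 CPM in ubiquitous progerin, against 9.35, 7.21, 9.63 and 6.86 CPM, a change of 0.69 ± 0.16 (adjusted p = 0.00097). Mrpl20, needed for assembly in bacteria, had 33.0, 28.9 and 28.4 CPM in ubiquitous progerin, against 23.7, 24, 21.5 and 27.1 CPM, a change of 0.32 ± 0.09 (adjusted p = 0.005).

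The genes that were lower in ubiquitous progerin included several of those higher in VSMC progerin. Mrps6 (chr16:92058270-92112227) had 3.92, 5.15 and 3.6 CPM in ubiquitous progerin, against 9.5, 8.81, 5.99 and 7.75 CPM in wild-type controls. The highest ubiquitous pool lay below the lowest wild-type pool, and the change was -0.92 ± 0.20 (adjusted p = 0.00047), the widest fall in the set. Mrps6 shares 159 exonic bases on the same strand with Slc5a3, an inositol transporter gene. Slc5a3 changed by -1.74 in the same comparison (adjusted p = 2.9e-06). Mrps6 also shares 305 bases on the same strand with Gm49711, so reads could be divided among these genes. In all, 22 members share exonic bases with a gene of the count table. Mrps11 (chr7:78783119-78792989) had 9.55, 10.2 and 6.21 CPM in ubiquitous progerin, against 15.2, 13.9, 12.3 and 14.9 CPM, a change of -0.70 ± 0.15 (adjusted p = 0.00057). Its exons overlap those of Mrpl46 by 173 bases on the opposite strand. Mrps25 had 16.6, 15.5 and 14.8 CPM in ubiquitous progerin, against 22.5, 23.0, 19.9 and 26.2 CPM, a change of -0.55 ± 0.13 (adjusted p = 0.0016). Mrps25 overlaps Nr2c2 by 4590 exonic bases on the opposite strand. Mrps5, the counterpart of bacterial S5, had 47.2, 44.3 and 52.0 CPM in ubiquitous progerin, against 54.6, 64.6, 58.9 and 56.0 CPM, a change of -0.29 ± 0.07 (adjusted p = 0.0019). No ubiquitous pool of these 4 genes, also chosen for the smallest p, reached a wild-type pool. The library kit was directional, but the strand setting of the counting is not given in the sources used here, so whether reads of antisense partners were kept apart is not known. In the same comparison Mrpl46 changed by 0.08 (adjusted p = 0.59) and Nr2c2 by 0.12 (adjusted p = 0.23).

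In the large subunit, Mrpl49 (chr19:6053622-6057785) had 19.0, 16.1 and 16.7 CPM in ubiquitous progerin, against 28.5, 26.3, 27.0 and 27.2 CPM in wild-type controls. Its change of -0.66 ± 0.09 (adjusted p = 3.4e-06) had the smallest adjusted p among the lower members, and it was lower in both progerin models. Mrpl24 had 73.8, 73.1 and 73.7 CPM in ubiquitous progerin, against 96.8, 98.3, 92.7 and 96.3 CPM. The 3 ubiquitous pools were nearly identical and below every wild-type pool, with a change of -0.39 ± 0.07 (adjusted p = 6.8e-05). The exons of Mrpl24 overlap those of Rrnad1 by 594 bases on the opposite strand. Rrnad1 changed by -0.25 in the same comparison (adjusted p = 0.019). Mrpl17, a protein near the exit tunnel, had 21.4, 22.7 and 21.7 CPM in ubiquitous progerin, against 32.2, 31.6, 26 and 28.9 CPM, a change of -0.43 ± 0.09 (adjusted p = 0.00035). Mrpl10, which anchors the stalk where translation factors bind, had 21.6, 19.7 and 20.5 CPM in ubiquitous progerin, against 26.1, 30.4, 27.8 and 27.3 CPM, a change of -0.44 ± 0.10 (adjusted p = 0.00069).

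Members with particular roles fell on both sides. Mrpl12, the stalk protein that also binds the mitochondrial RNA polymerase, had 26.6, 27.0 and 27.0 CPM in VSMC progerin, against 22.9, 24.4, 21.7 and 25.8 CPM in lamin C-only controls, which did not pass the test (0.18 ± 0.09, adjusted p = 0.11). In ubiquitous progerin it had 17.6, 20.6 and 17.1 CPM, against 21.5, 21.9, 21.9 and 23.7 CPM in wild-type controls, a change of -0.27 ± 0.09 (adjusted p = 0.016) that missed 0.05 without ubiquitous pool 1 or pool 3. Mrpl11, which forms the factor-binding site with the ribosomal RNA, had a change of 0.24 ± 0.10 in ubiquitous progerin (adjusted p = 0.044) and lost the call in 9 alternatives. Mrpl58, a peptidyl-tRNA hydrolase that rescues stalled ribosomes, had a change of -0.08 ± 0.08 in VSMC progerin and -0.15 ± 0.08 in ubiquitous progerin, neither passing the test. Mrpl44, which has the fold of a ribonuclease III, had 0.18 ± 0.09 and 0.12 ± 0.09, and Mrps12, at the decoding centre, 0.06 ± 0.18 and 0.01 ± 0.18, in the same order. Mrps16 had 0.13 ± 0.12 and -0.23 ± 0.12, and Mrps22 had -0.02 ± 0.18 and 0.29 ± 0.18. None of these 4 passed the test in either comparison.

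The 3 relatives of bacterial S18 each had a value in ubiquitous progerin. Mrps18b had 13.3, 20.5 and 15.1 CPM there, against 11.6, 12.6, 13.1 and 10.1 CPM in wild-type controls (0.46 ± 0.14, adjusted p = 0.01), with pool 2 far above the others and no call without it. Mrps18c had 32.1, 34.3 and 32.7 CPM, against 28.1, 25, 28.2 and 26.1 CPM (0.30 ± 0.09, adjusted p = 0.0071). Mrps18a had 28.2, 28.6 and 25.1 CPM, against 23.7, 23.3, 23.1 and 23.4 CPM (0.23 ± 0.09, adjusted p = 0.033), a call lost in 6 alternatives, 5 of them leaving out 1 library and 1 without the filter. Mrps36, the dehydrogenase component, had 8.32, 6.97 and 6.42 CPM, against 11.7, 8.75, 12.8 and 11 CPM (-0.61 ± 0.15, adjusted p = 0.002). Mrps36 has 3 annotated pseudogenes with its name, and Mrpl23 and Mrpl48 have 1 each, so their counts depend on how shared reads were divided.

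**Figure D3:**
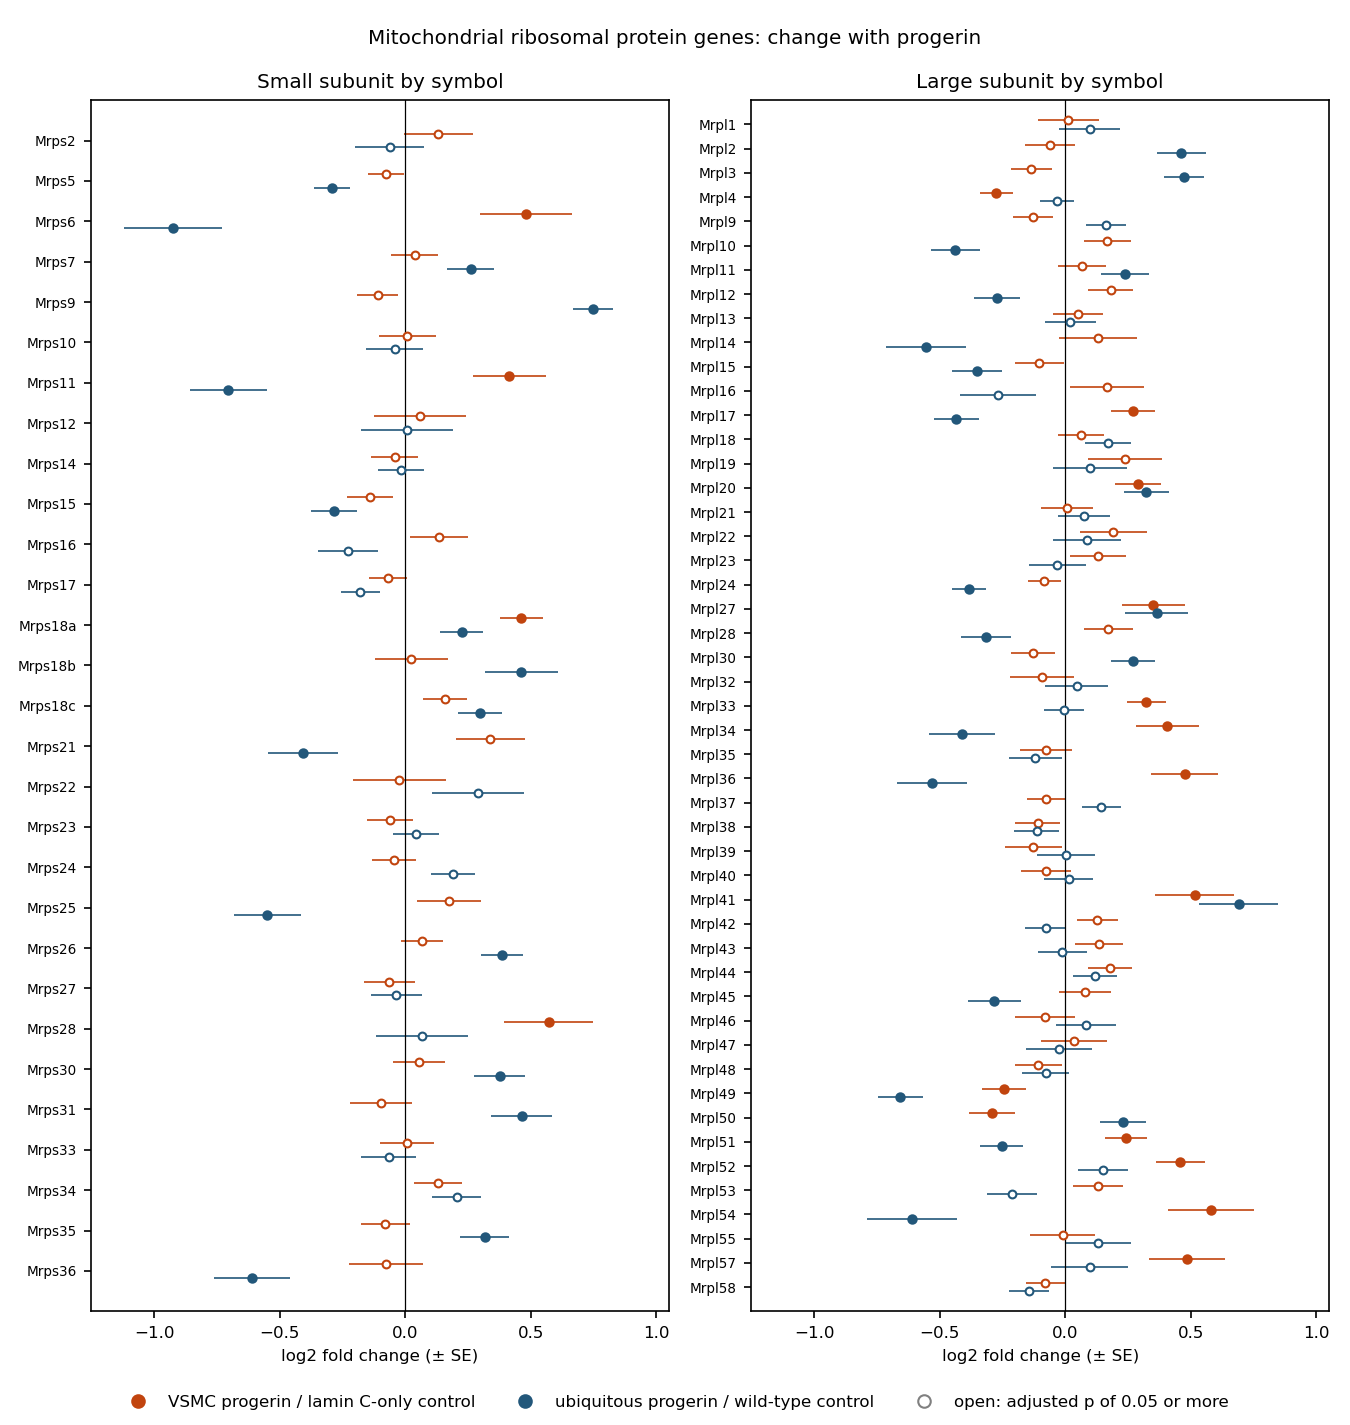
Log2 fold change with SE (horizontal axis) of every member (rows) for VSMC progerin over lamin C-only control and ubiquitous progerin over wild-type control, in separate panels for small and large subunit symbols, with filled points for an adjusted p under 0.05. The extremes are Mrps9 at 0.75 and Mrps6 at -0.92, both in ubiquitous progerin.

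Between the lamin C-only and wild-type controls, 0 of 78 members passed an adjusted p of 0.05 in edgeR's test, against 0.175% of all genes (0.0911% higher and 0.0841% lower), and DESeq2 and the other alternatives also called 0. An unadjusted p under 0.05 was reached by 3 of the 78 members, Mrpl9, Mrps15 and Mrps18c, and by 1052 of all 14269 genes tested. Mrpl9 came closest, with 41.3, 43.2, 41.5 and 44.5 CPM in lamin C-only controls, against 50.6, 53.0, 54.5 and 50.5 CPM in wild-type controls. Its groups did not overlap, and the change was -0.29 ± 0.07 (adjusted p = 0.16). Changes over all members ran from -0.30 to 0.22.

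The effects of progerin in the 2 models were then compared by their difference, VSMC minus ubiquitous, which uses separate controls. It passed the test for 27 members (34.6%, against 44.2% of all genes tested, 21.8% higher and 22.4% lower). Of the members, 17 had the VSMC effect higher (21.8%) and 10 had it lower (12.8%). The 10 became 6 without ubiquitous pool 3. Of the 78 members, 36 were called in neither model. The shares of all genes tested with each combination of calls were not counted, so these combinations only describe the members. Mrps18a, Mrpl20, Mrpl27 and Mrpl41 were higher in both models and Mrpl49 lower in both. Mrpl50 was lower in VSMC progerin and higher in ubiquitous progerin, where its groups overlapped, with 24.5, 21.2 and 25.7 CPM in ubiquitous progerin against 20.1, 19.0, 21.9 and 20.1 CPM in wild-type controls. Another 7 were higher in VSMC progerin and lower in ubiquitous progerin, namely Mrps6, Mrps11, Mrpl17, Mrpl34, Mrpl36, Mrpl51 and Mrpl54. The difference passed the test for all 7. Members called in opposite directions were nearly bound to pass it, so this adds no separate support. The Spearman correlation of the effects over the 78 members was -0.16, against 0.20 over all genes tested, given as a description because genes share libraries.

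The widest differences were those of Mrps6 (1.41 ± 0.27, adjusted p = 0.00024), Mrpl54 (1.19 ± 0.25, adjusted p = 0.00055), Mrps11 (1.12 ± 0.21, adjusted p = 0.00021) and Mrpl36 (1.01 ± 0.19, adjusted p = 0.00026). Mrpl36 (chr13:73328513-73332178) had 7.2, 8.04 and 7.47 CPM in ubiquitous progerin, against 10.2, 10.8, 13.1 and 9.78 CPM in wild-type controls. Mrpl54 (chr10:81264713-81266934) had 7.67, 5.0 and 6.74 CPM in ubiquitous progerin, against 11.7, 8.62, 10.5 and 8.86 CPM. By group mean, both genes stood highest in VSMC progerin and lowest in ubiquitous progerin. In the opposite direction stood Mrps9 (-0.86 ± 0.12, adjusted p = 5.1e-06), Mrpl3 (-0.61 ± 0.12, adjusted p = 0.00022) and Mrps31 (-0.56 ± 0.17, adjusted p = 0.012), which were higher in ubiquitous progerin and not called in VSMC progerin.

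**Figure D4:**
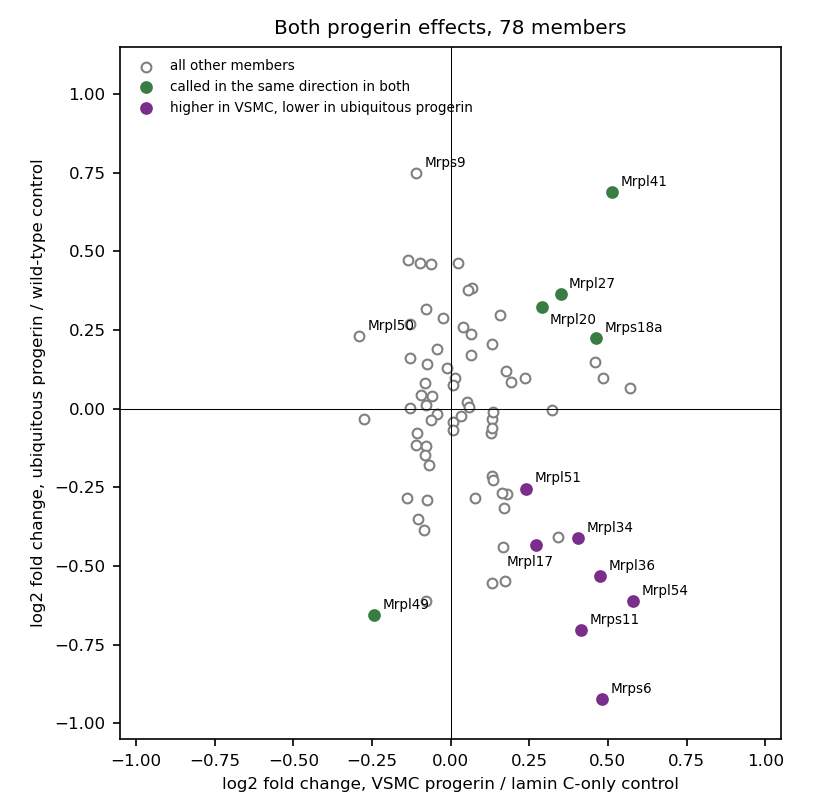
Log2 fold change of each of the 78 members in VSMC progerin over lamin C-only control (horizontal) and ubiquitous progerin over wild-type control (vertical). The 7 purple members are called higher in VSMC progerin and lower in ubiquitous progerin, the 5 green ones are called in the same direction in both, and Mrps6 lies farthest down at -0.92.

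The changes in VSMC progerin varied with the length of the coding sequence. Length classes were chosen after the values were seen. Among the 26 members with the shortest coding sequences (195 to 477 bases), 11 were higher and 1 lower in VSMC progerin, with a median log2 change of 0.15. Of the 26 in the middle (480 to 753 bases), 4 were higher and 1 lower (median 0.04), and of the 26 longest (756 to 1326 bases), 0 were higher and 1 lower (median -0.07). In ubiquitous progerin the medians were -0.05, 0.03 and 0.09, with 5 higher and 8 lower among the shortest, 5 and 6 in the middle and 7 and 6 among the longest. The Spearman correlation of the change with coding length over the 78 members was -0.47 in VSMC progerin and 0.29 in ubiquitous progerin, against -0.09 and -0.02 over all genes with a coding length, all as descriptions. In VSMC progerin the members' changes also correlated with transcript length (-0.37), mean level (-0.34) and GC content (0.23), and these were not separated from coding length. In ubiquitous progerin these were 0.05, 0.12 and -0.08. Short genes in general leaned the same way in VSMC progerin. Of the 1234 tested genes with a coding sequence no longer than 477 bases, 24.3% were higher and 12% lower, with a median of 0.09. In ubiquitous progerin 24.9% of these genes were higher and 22.9% lower. Each member's log2 CPM was also set against its mean over the 4 groups. By library, the median of these deviations over the shortest members minus that over the longest was 0.31, 0.28 and 0.10 in VSMC progerin pools, against -0.11, -0.001, 0.03 and 0.11 in lamin C-only pools. It was -0.03, -0.13 and -0.21 in ubiquitous progerin pools, against -0.03, -0.07, 0.05 and 0.02 in wild-type pools. VSMC pool 3 lay below the highest lamin C-only pool, so the VSMC ranges overlapped.

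**Figure D5:**
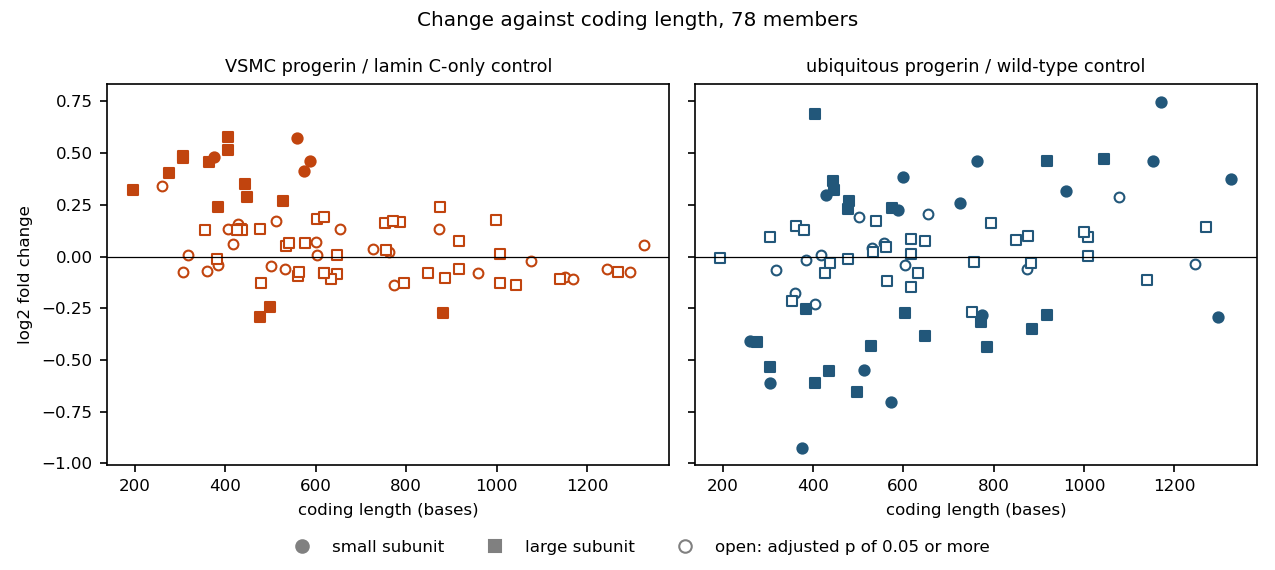
Log2 fold change of each member (vertical) against its coding length in bases (horizontal), for VSMC progerin over lamin C-only control at left and ubiquitous progerin over wild-type control at right, with filled symbols for an adjusted p under 0.05. At left 11 of the 26 shortest members are higher and 0 of the 26 longest.

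The genes that work with the mitochondrial ribosome were described from lists of related genes. Over all genes tested, 19.0% were higher and 23.0% lower in VSMC progerin, and 26.3% higher and 28.3% lower in ubiquitous progerin, so the counts of these lists, several of them near those shares, are descriptions. Of 14 mitochondrial translation factors, 0 were higher and 5 lower in VSMC progerin (median log2 change -0.09), and 0 higher and 6 lower in ubiquitous progerin (median -0.29). In VSMC progerin these were led by Oxa1l, the inner membrane insertase (-0.43 ± 0.06, adjusted p = 9e-06), and Mrrf, the recycling factor (-0.48 ± 0.12, adjusted p = 0.0024). In ubiquitous progerin they were led by Tsfm (-0.85 ± 0.15, adjusted p = 8.7e-05) and Tufm (-0.53 ± 0.10, adjusted p = 0.00014), the elongation factors Ts and Tu. Of 23 assembly and rRNA modification genes, 0 were higher and 5 lower in VSMC progerin, and 5 higher and 6 lower in ubiquitous progerin. Mrm1, a ribose methyltransferase, and Rpusd4, a pseudouridine synthase, led the VSMC comparison, at -0.77 ± 0.11 and -0.52 ± 0.10. In ubiquitous progerin the smallest p among the higher genes were those of Malsu1, an assembly factor of the large subunit (0.68 ± 0.10, adjusted p = 1.6e-05), and Mettl17, an assembly factor of the small subunit (0.61 ± 0.09, adjusted p = 1.7e-05). Among the lower genes they were those of Mtg2 (-0.77 ± 0.12, adjusted p = 2.2e-05), a GTPase of large subunit assembly, and Fastkd2 (-1.06 ± 0.18, adjusted p = 5.2e-05), which binds the large ribosomal RNA.

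Of the 5 ribosomal proteins of the particle with other symbols, 0 were higher and 1 lower in VSMC progerin, and 0 higher and 2 lower in ubiquitous progerin. Dap3, a GTP-binding protein of the small subunit, changed by -0.28 ± 0.07 in VSMC progerin (adjusted p = 0.0032). Ptcd3, a pentatricopeptide protein of the small subunit, changed by -0.29 ± 0.08 in ubiquitous progerin (adjusted p = 0.0059). Of 17 mitochondrial aminoacyl-tRNA synthetases, 1 was higher and 4 lower in each comparison. The higher one in VSMC progerin was Lars2, at 284 to 1890 CPM in VSMC progerin against 177 to 322 CPM in lamin C-only controls, ranges that overlapped. Of 19 import genes, 4 were higher and 2 lower in VSMC progerin and 5 higher and 3 lower in ubiquitous progerin.

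Genes of transcription and biogenesis make the RNA of the organelle and set its amount. Of 10 genes of mitochondrial transcription and DNA maintenance, 0 were higher and 4 lower in VSMC progerin (median -0.29), and 4 higher and 1 lower in ubiquitous progerin (median 0.18). Over all genes tested, 42.0% were called in VSMC progerin and 54.6% in ubiquitous progerin, so the numbers called in this list are near those shares. The difference of the effects, VSMC minus ubiquitous, passed the test as lower for 5 of the 10, against 22.4% of all genes tested. Tfam, which packages mitochondrial DNA, changed by -0.29 ± 0.09 in VSMC progerin (adjusted p = 0.013) and by 0.23 ± 0.09 in ubiquitous progerin (adjusted p = 0.036). Of 10 biogenesis regulators, 1 was higher and 4 lower in VSMC progerin, and 3 higher and 2 lower in ubiquitous progerin. Pprc1, a coactivator of NRF1, changed by 0.48 ± 0.10 in VSMC progerin (adjusted p = 0.00093) and by -1.07 ± 0.11 in ubiquitous progerin (adjusted p = 8.9e-08). Myc was lower in both, by -0.56 ± 0.12 in VSMC progerin (adjusted p = 0.00059) and -0.78 ± 0.12 in ubiquitous progerin (adjusted p = 1.1e-05). Of 11 stress response genes tested of 12, 1 was higher and 3 lower in VSMC progerin, and 5 higher and 2 lower in ubiquitous progerin, led by the protease gene Lonp1 (-0.27 ± 0.06, adjusted p = 0.00091, and 0.52 ± 0.06, adjusted p = 2.3e-07, in the same order).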

How the data were processed

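The authors deposited RSEM estimated counts per gene, which need not be whole (12.7% of values were not), and log2 values normalised with limma-voom. Per the submitters' processing notes, reads were handled with Trim Galore 0.6.10, cutadapt 4.1, RSEM 1.2.28 and STAR 2.7.10b on GRCm38, and limma was used. The strand setting, the filters and the release of the annotation were not given in the sources used here. Per the labels' protocols, polyadenylated RNA from 100 ng of total RNA went into a directional kit.

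Estimated counts were rounded. The quasi-likelihood test of edgeR 4.0.16 (R 4.3.3, robust) was fitted to the 14 libraries together, after TMM scaling and filterByExpr with minimum count 10 and minimum total 15. Adjusted p-values follow Benjamini-Hochberg across 14269 genes, and calls were made under 0.05. Each SE is the log2 change over the square root of the F statistic. The deposited log2 values, limma-voom 3.58.1 and DESeq2 1.42.0 served as alternatives. Gene positions and coding lengths came from GENCODE M21, which matched 22311 identifiers. The script was tested on simulated data, with 200 genes changed in the VSMC comparison. It recovered 0% of them at a 1.2-fold change, 56.5% at 1.5-fold and 71% at 2-fold. Among changed genes with a mean of at least 5 CPM, as all members have, it recovered 0%, 73.4% and 94.5%. Far fewer genes were changed there than were called in the data, so these shares do not carry over directly. A member without a call can still have a small change. Counts of replicate pools differed by more than sampling noise, so all 14 libraries were counted as separate.

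The members and the gene lists were chosen with earlier results of these data known, so no list serves as independent evidence. In each comparison the text names, by subunit and direction, the 4 called members with the smallest p, plus the highest and lowest levels per kilobase and members with a particular role. Members chosen for a small p tend to have pools that do not overlap, so their lack of overlap is only a description. For related lists it names called genes, chosen mostly for the smallest p.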

Additional observations from a re-analysis of the deposited data

Results flagged for a closer look

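In 5 of the 84 groups of 4 pools examined, 1 pool stood far from the other 3, and chance gives about 1 in 20. Mrpl33 had 50.9 CPM in wild-type pool 1, against 42.5 to 42.9 CPM in the other wild-type pools. Mrpl2 had 22.3 CPM in the same pool, against 27.2 to 28.2 CPM, and Mrps21 had 14.5 CPM, against 23.9 to 24.3 CPM. Mrpl41 had 8.95 CPM in lamin C-only pool 4, against 6.78 to 6.97 CPM, and Mrpl17 had 28.2 CPM in lamin C-only pool 3, against 30.7 to 31.3 CPM.

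The effect of progerin differed between the VSMC and the ubiquitous model, by the test of the difference itself (edgeR, adjusted over all genes tested), for the following members. The difference, VSMC minus ubiquitous on the log2 scale, was 1.41 for Mrps6, 1.19 for Mrpl54, 1.12 for Mrps11, 1.01 for Mrpl36, 0.82 for Mrpl34, 0.75 for Mrps21, 0.72 for Mrps25 and 0.70 for Mrpl17. In the other direction it was -0.86 for Mrps9, -0.61 for Mrpl3, -0.56 for Mrps31, -0.52 for Mrpl50, -0.52 for Mrpl2, -0.40 for Mrps35, -0.40 for Mrpl30 and -0.32 for Mrps26. The difference for Mrps21 was 0.90 without wild-type pool 1. The call of the difference was lost in 7 alternatives for Mrps26, in 2 for Mrps35 (upper-quartile factors and without ubiquitous pool 2) and in 1 for Mrpl30 (without ubiquitous pool 3).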

How the results depend on the processing

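No result changed direction among called values. Of 1752 alternative values of the named genes, 1685 kept their side of the threshold, 58 lost the call and 9 gained it. In VSMC progerin, the count of higher members was 9 with library totals only and 7 to 14 when single libraries were left out, and the count of lower members was 1 with upper-quartile factors, 6 with library totals only, 1 with a mean of at least 5 CPM and 1 to 3 when single libraries were left out. The count of members with a lower difference of effects was 6 with upper-quartile factors and 6 to 11 when single libraries were left out. The cause was not tested. Upper-quartile factors split all called genes in VSMC progerin into 3251 higher and 2408 lower, and DESeq2 into 3010 and 2941, against 2705 and 3283. By known position, the small and large subunit had 3 and 12 members higher in VSMC progerin and 7 and 10 in ubiquitous progerin (chosen after seeing the data). Depth limits most the members with the lowest levels, down to 103 estimated counts in a library.

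With the pool number as a replicate block, 16 members were higher and 3 lower in VSMC progerin, 16 and 19 in ubiquitous progerin, 0 and 0 in lamin C-only controls, and 18 and 9 in the difference. Deviations of same-numbered pools correlated between -0.046 and 0.023, so no strong shared effect of the pool number was seen. These correlations cannot show whether same-numbered pools were handled together.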
